A study of Mus musculus with 6 samples.

Results

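Purinergic receptors and the ectoenzyme CD39 were examined in RNA-seq of immortalized bone marrow-derived macrophages (BMMs) from Aif1-/- and WT mice. The set held 10 genes of the 47729 in the count tables, taken by symbol: the ATP-gated channels P2rx4 and P2rx7, the nucleotide receptors P2ry2, P2ry6, P2ry12, P2ry13 and P2ry14, the adenosine receptors Adora2a and Adora2b, and Entpd1, which encodes CD39. There were 3 Aif1-/- and 3 WT libraries of rRNA-depleted total RNA. Aif1-/- BMMs lacked allograft inflammatory factor 1, a calcium-binding protein of macrophages, through a germline null allele, and WT BMMs carried the intact gene. All cells came from male C57BL/6J mice of 8 weeks, were immortalized with SV40 large T antigen, were kept in CSF-1 at 120 ng/ml and were harvested at passage 3 to 5. The labels name no stimulus for either genotype. The study describes the animals behind these libraries as biologically independent, and the labels do not say how many immortalized lines were made, so the p-values rest on the library-to-library spread alone.

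Extracellular ATP and UTP are released by stressed, dying or stimulated cells and act on 2 receptor families: the P2X channels, which pass cations when ATP binds, and the G protein-coupled P2Y receptors, which read ATP, ADP, UTP, UDP or UDP-sugars. CD39 on the cell surface strips phosphates from ATP and ADP to leave AMP, which CD73 turns into adenosine, and adenosine acts on receptors of its own. In macrophages P2X7 is best known for driving NLRP3 inflammasome activation, P2Y2 for sensing nucleotides from apoptotic cells, P2Y6 for UDP-evoked phagocytosis in microglia, P2Y12 for process movement in microglia, and the adenosine receptors for restraining inflammatory output.

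The 6 libraries held between 17707986 and 29314253 counts in genes. Aif1 had 4, 4 and 1 counts in the Aif1-/- libraries, against 220, 157 and 239 in the WT libraries, as the labels require. WT replicates 3 and 2 stood apart in composition, on opposite sides. Of their counted reads, 25.5% and 40.4% lay outside genes. The share was 33.6% to 35.7% in the 3 Aif1-/- libraries and 32.4% in WT replicate 1. Calls that change without WT replicate 3 are given both ways. Of 10 macrophage markers, all 10 passed the filter on low counts, with summed levels of 5908 to 6002 CPM (counts-per-million, relative to the scaled library) in Aif1-/- BMMs and 4435 to 5063 CPM in WT BMMs, and 6 were higher and 1, Cd14, was lower in Aif1-/- BMMs. Of 6 dendritic cell markers 3 passed and 1, Itgax, was higher. The Cd14 and Itgax calls were lost without WT replicate 1 or any Aif1-/- replicate, Fcgr1 likewise, and Spi1 (higher) and Ptprc (lower) were added without WT replicate 3. The granulocyte, mast cell, lymphocyte and fibroblast markers summed to at most 0.647 CPM in any library. Because these are bulk samples, fewer cells of a type and less RNA per cell cannot be told apart.

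Of the 9 genes that passed the filter, P2ry13 and Entpd1 were higher and P2ry2 and P2rx4 were lower in Aif1-/- BMMs, while P2rx7, P2ry6, P2ry12, P2ry14 and Adora2b did not pass the test. P2ry13 had the largest change of the 9 genes, at 2.78-fold. Adora2a was close to undetected in both genotypes. The 4 calls stand at an adjusted p under 0.05 in edgeR's quasi-likelihood test, with Benjamini-Hochberg adjustment over all 17406 genes tested, of which 18.6% were called (8.04% higher and 10.5% lower). The median log2 fold change of the 9 genes was 0.22 (the value of Adora2b, a scarce gene), or 0.13 without WT replicate 2, against -0.00 over all genes tested. The genotypes did not overlap in CPM for 7 of the 9 genes, the exceptions being P2ry14 and Adora2b, and for 35.7% of all genes tested.

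**Figure D1:**
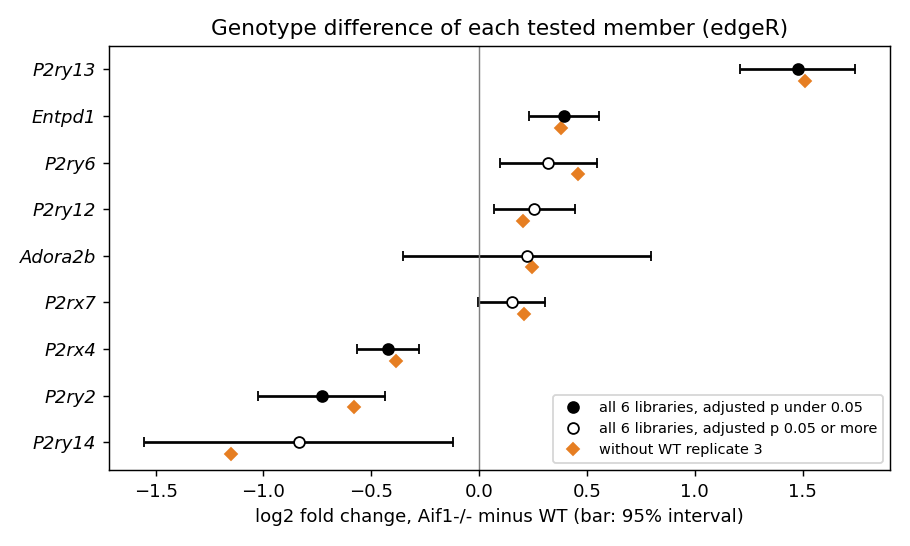
Log2 fold change (Aif1-/- over WT) of the 9 tested genes with 95% intervals from edgeR. Filled points passed an adjusted p of 0.05 and open points did not, and the diamonds give the value without WT replicate 3. P2ry13 lies far to the right at 1.48, P2ry2 and P2rx4 lie left of 0, and the wide interval of P2ry14 moves to -1.15 without that library.

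The sequence around the start of each of the 4 genes that changed is shown, since these are the genes on which the comparison turns and they do not share one kind of promoter. Each run covers 250 bases before to 50 bases after the start, from RefSeq on GRCm38.p6, 5′ to 3′ on the strand of the gene. The RefSeq start equals the gene start given below for P2ry13, Entpd1 and P2rx4, while for P2ry2 it lies 813 bases downstream of the outermost start in GENCODE, so that window is inside the gene as annotated there. They are chr3:59210833-59211132 (minus strand) for P2ry13, chr19:40612116-40612415 (plus strand) for Entpd1, chr7:101012004-101012303 (minus strand) for P2ry2 and chr5:122707294-122707593 (plus strand) for P2rx4. Capitals mark the matches to any of 5 motifs searched on both strands: GGGCGG (the GC box), GAGGAA (a core of sites for the macrophage factor PU.1), the interferon-stimulated response element (2 copies of GAAA with 2 bases between them), CACGTG (an E-box) and CCAAT (the CCAAT box).
P2ry13: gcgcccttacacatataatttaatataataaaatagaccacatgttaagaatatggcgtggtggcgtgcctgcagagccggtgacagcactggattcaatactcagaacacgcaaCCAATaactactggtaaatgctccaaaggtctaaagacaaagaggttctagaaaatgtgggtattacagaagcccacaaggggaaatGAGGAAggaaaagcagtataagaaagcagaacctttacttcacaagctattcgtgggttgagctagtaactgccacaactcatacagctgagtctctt
Entpd1: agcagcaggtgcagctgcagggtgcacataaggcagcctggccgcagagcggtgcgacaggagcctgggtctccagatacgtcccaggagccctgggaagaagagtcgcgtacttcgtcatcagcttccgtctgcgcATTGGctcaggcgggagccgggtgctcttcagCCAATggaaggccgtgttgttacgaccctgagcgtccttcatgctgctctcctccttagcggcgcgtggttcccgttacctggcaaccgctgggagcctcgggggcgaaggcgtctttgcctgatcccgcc
P2ry2: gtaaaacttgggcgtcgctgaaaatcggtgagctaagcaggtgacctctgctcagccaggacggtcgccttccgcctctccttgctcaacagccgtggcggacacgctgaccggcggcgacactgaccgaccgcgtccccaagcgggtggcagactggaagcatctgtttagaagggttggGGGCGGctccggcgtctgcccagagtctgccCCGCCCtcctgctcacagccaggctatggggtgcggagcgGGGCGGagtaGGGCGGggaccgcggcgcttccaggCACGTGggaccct
P2rx4: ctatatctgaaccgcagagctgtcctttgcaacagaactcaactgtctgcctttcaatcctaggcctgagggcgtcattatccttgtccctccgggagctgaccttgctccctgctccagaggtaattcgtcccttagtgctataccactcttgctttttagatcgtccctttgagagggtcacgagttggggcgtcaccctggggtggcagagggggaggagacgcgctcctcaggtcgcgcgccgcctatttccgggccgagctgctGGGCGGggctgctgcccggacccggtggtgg

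The P2ry13 window was the AT-rich one of the 4, with 42.3% G and C and 6 CpG dinucleotides. Its only capitals are a CCAAT at base 116 and a GAGGAA at base 203. The other windows were rich in G and C, at 64.0% for Entpd1, 67.3% for P2ry2 and 60.3% for P2rx4, against a median of 52.7% over all 27025 promoters of the table. Entpd1 held 2 CCAAT matches and no GC box, P2ry2 held 4 GC boxes and 1 CACGTG, and P2rx4 held 1 GC box. Among members not called, P2ry12 also had 42.3% G and C, and P2ry14 had 49.3%, both without a GC box. P2rx7 (53.3%) and Adora2b (70.0%), likewise not called, held 2 and 6 GC boxes. Over the whole table, GGGCGG occurred in 35.9% of all promoters, GAGGAA in 28.3%, CCAAT in 38% and CACGTG in 7.24%. The interferon-stimulated response element, present in 3.49% of all promoters, was found in none of the 8 windows available for these genes. A match describes these letters and is not a measured binding site. The windows of P2ry6 and Adora2a were not used here.

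Among the ADP receptors, P2ry13 was the gene with the clearest difference. P2ry13 (ENSMUSG00000036362) lies on the minus strand of chromosome 3, at 59207892 to 59210882 of GRCm38, and encodes a Gi-coupled receptor for ADP. It had 719, 540 and 421 counts in Aif1-/- BMMs, against 227, 259 and 281 in WT BMMs. Scaled to library size by TMM (trimmed mean of M values), these were 27.0, 30.6 and 23.6 CPM in Aif1-/- BMMs and 9.72, 9.35 and 10.1 CPM in WT BMMs. Every Aif1-/- library lay above every WT library, and the 3 WT values were close to each other. The log2 fold change was 1.48 (SE 0.12, 95% interval 1.21 to 1.74), with an edgeR adjusted p of 1.15e-05, which placed it 342nd of all genes tested. It was the sole member still called when the test was set against a log2 fold change of 1 (edgeR glmTreat, adjusted p = 0.00843), a test that called 3.44% of all genes.

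P2ry12 (ENSMUSG00000036353), whose product is the platelet ADP receptor blocked by clopidogrel and a marker of resting microglia, lies 5389 bases from P2ry13 at chr3:59216272-59262871, on the same strand. Its 46.2, 44.5 and 42.5 CPM in Aif1-/- BMMs lay above its 40.2, 37.3 and 34.3 CPM in WT BMMs. The groups did not overlap, yet the log2 fold change of 0.26 (SE 0.08, 95% interval 0.07 to 0.44) did not pass the threshold (edgeR adjusted p = 0.0637). The interval leaves room for a difference of up to 0.44 on the log2 scale, which is below the lower bound for P2ry13. P2ry12 was called with the stricter filter on low counts (edgeR adjusted p = 0.0494, with 22.8% of genes called). It was also called with the covariate for reads outside genes, added after the data were seen (edgeR adjusted p = 0.0171, with 31.7% of genes called). P2ry14 (ENSMUSG00000036381, chr3:59113855-59153618, minus strand) encodes the receptor for UDP-glucose and related UDP-sugars. It was scarce, with 75, 49 and 53 counts in Aif1-/- BMMs, against 159, 165 and 72 in WT BMMs.

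In CPM, P2ry14 stood at 2.82, 2.78 and 2.97 in Aif1-/- BMMs, against 6.80, 5.96 and 2.59 in WT BMMs. WT replicates 1 and 2 lay above all Aif1-/- libraries, but WT replicate 3, the library with the lowest share of reads outside genes, lay below them. The log2 fold change was -0.84 (SE 0.32, 95% interval -1.55 to -0.12; edgeR adjusted p = 0.109) with all libraries and -1.15 (edgeR adjusted p = 0.000282) without WT replicate 3, when 27.6% of all genes tested were called. Whether P2ry14 was called thus depended on that library, and also on the filter and the model. With all libraries it was called with no filter on low counts (edgeR adjusted p = 0.0256). It was also called with a covariate for reads outside genes, added after the data were seen (edgeR adjusted p = 0.0108).

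**Figure D2:**
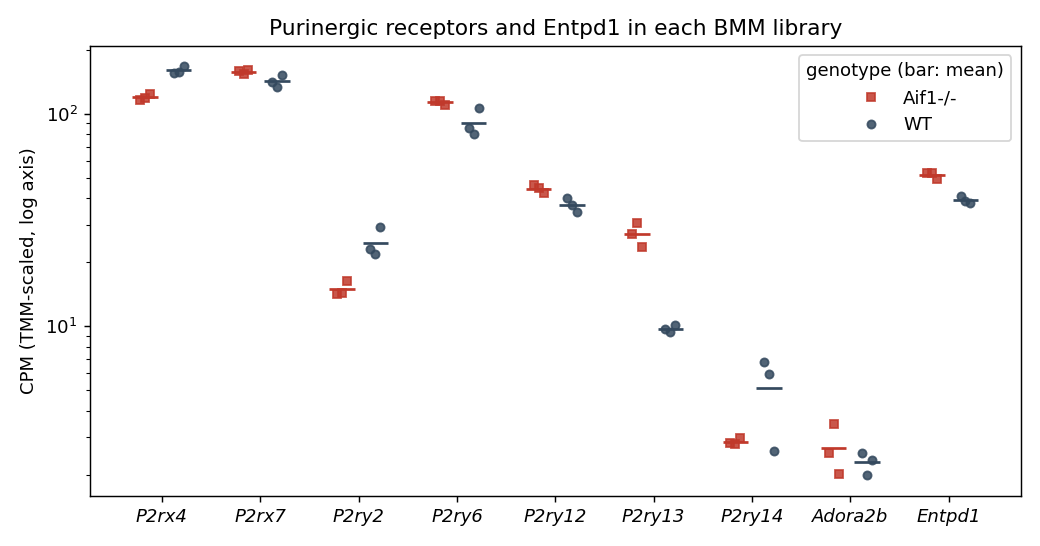
CPM of the genes in each library, Aif1-/- squares left of WT circles and a line at each mean. P2ry13 separates the genotypes most widely (27.1 CPM against 9.72 CPM on average), while WT replicate 3 lies just below the Aif1-/- libraries for P2ry14 and close to them for P2ry6, apart from the other WT libraries in both.

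The neighbours on chromosome 3 also allow a comparison that needs no scaling, since the ratio of 2 counts within a library does not depend on its depth. The ratio of P2ry13 to P2ry12 was 0.586, 0.688 and 0.555 in Aif1-/- BMMs, against 0.242, 0.251 and 0.295 in WT BMMs. On average it was 2.32 times as high in Aif1-/- BMMs. The ratio of P2ry13 to P2ry14, 54273 bases apart, was 9.59, 11 and 7.94 in Aif1-/- BMMs, against 1.43, 1.57 and 3.90 in WT BMMs. In both pairs no Aif1-/- library overlapped a WT library, WT replicate 3 included.

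Overlapping genes matter for such counts. Med12l, a Mediator subunit gene that runs through the cluster on the opposite strand, averaged 9.03 CPM in Aif1-/- BMMs and 9.27 CPM in WT BMMs (log2 fold change -0.04, edgeR adjusted p = 0.912). Its exons share 9 bases with those of P2ry12 and 0 with those of P2ry13 and P2ry14.

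The receptors for UTP and UDP lie side by side on chromosome 7 and differed in direction. P2ry2 (ENSMUSG00000032860, chr7:100996568-101012866, minus strand) encodes a Gq-coupled receptor that ATP and UTP activate alike. It had 14.1, 14.3 and 16.3 CPM in Aif1-/- BMMs, against 22.9, 21.8 and 29.4 CPM in WT BMMs. No library of one genotype reached the range of the other, and the WT spread came mostly from replicate 3. The log2 fold change was -0.73 (SE 0.13, 95% interval -1.02 to -0.44), with an edgeR adjusted p of 0.00301, so that Aif1-/- BMMs held 0.603 times the WT level.

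P2ry6 (ENSMUSG00000048779, chr7:100937630-100974649, minus strand) encodes the UDP receptor and lies 21918 bases from P2ry2. It had 115, 115 and 110.4 CPM in Aif1-/- BMMs, against 85.3, 80.3 and 107 CPM in WT BMMs. The groups did not overlap, but in CPM WT replicate 3 came close to the Aif1-/- libraries. In transcripts-per-million (TPM, described below) the gap was wider. WT BMMs had 73.6, 74.0 and 79.5 TPM, against 92.3 to 95.9 TPM in Aif1-/- BMMs. The log2 fold change of 0.32 (SE 0.10, 95% interval 0.10 to 0.55) missed the threshold narrowly (edgeR adjusted p = 0.0530), and it passed in DESeq2 (adjusted p = 0.0240, with 15.9% of all genes called). Without WT replicate 3 it was 0.46 (edgeR adjusted p = 5.29e-05). Within a library, the ratio of P2ry6 to P2ry2 counts was 8.15, 8.00 and 6.79 in Aif1-/- BMMs, against 3.72, 3.69 and 3.64 in WT BMMs. That ratio was 2.08 times as high in Aif1-/- BMMs, and here WT replicate 3 sat with the other WT libraries.

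The ATP-gated channels formed a similar pair on chromosome 5. P2rx4 (ENSMUSG00000029470, chr5:122707544-122729738, plus strand) encodes a high-affinity ATP channel found in lysosomes and at the surface of macrophages. Its level was 116, 118 and 124 CPM in Aif1-/- BMMs, against 156, 157 and 167 CPM in WT BMMs. In CPM the gap between the groups was far wider than the spread within either. The log2 fold change was -0.42 (SE 0.06, 95% interval -0.57 to -0.28; edgeR adjusted p = 0.00108). WT replicate 3, the highest WT library in CPM, was the lowest in TPM (51.1, against 55.3 and 59.5). Aif1-/- BMMs had 39.7 to 42.6 TPM.

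P2rx7 (ENSMUSG00000029468, chr5:122643911-122691432, plus strand) encodes the low-affinity channel that opens a large conductance at high ATP. It had 159.5, 153 and 160.4 CPM in Aif1-/- BMMs, against 140.2, 134 and 152 CPM in WT BMMs. In CPM the lowest Aif1-/- library stood just above the highest WT library, which was again replicate 3. In TPM replicate 3 was instead the lowest WT library. The values were 58.4, 59.6 and 54.8 TPM in WT BMMs, against 61.7 TPM or more in Aif1-/- BMMs. The log2 fold change was 0.15 (SE 0.07, 95% interval -0.00 to 0.31), and it did not pass (edgeR adjusted p = 0.182). Without WT replicate 3 it was 0.21 (edgeR adjusted p = 0.0104). The ratio of P2rx7 to P2rx4 counts was 1.37, 1.29 and 1.29 in Aif1-/- BMMs, against 0.898, 0.851 and 0.911 in WT BMMs, so P2rx7 gave more reads than P2rx4 in every Aif1-/- library and fewer in every WT library.

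For each of these 4 neighbouring pairs, an exact two-sided permutation test over the libraries gave p = 0.1, which is the smallest that 3 against 3 can give, and the value adjusted over the 4 pairs was 0.1. The separation in each pair was thus complete but the design cannot take such a single-value test below 0.05. In each ratio the gene with the larger log2 fold change was put on top, so the higher side was set by that choice. How often other neighbouring genes separate in this way was not measured. Among single genes, the genotypes did not overlap in CPM for 35.7% of all genes tested.

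**Figure D3:**
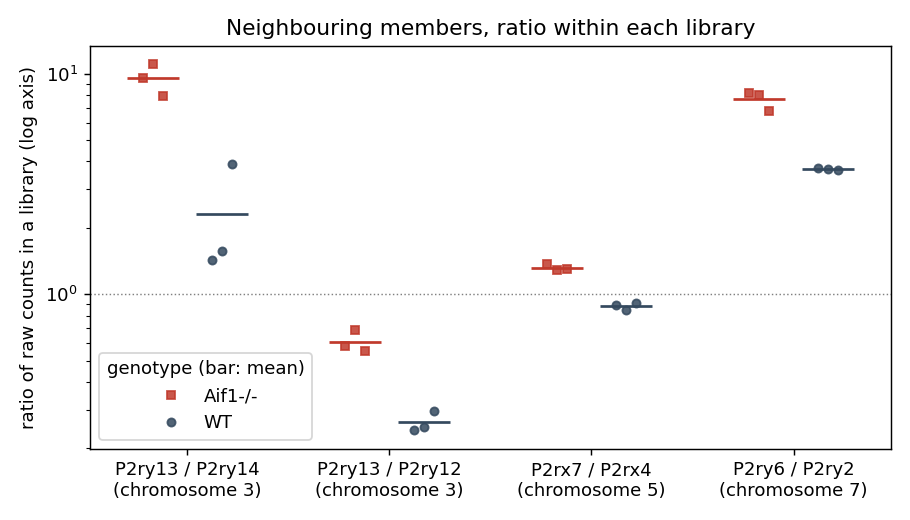
Ratio of raw counts of 2 adjacent receptor genes within each library, on a log axis, for 4 pairs, with Aif1-/- squares left of WT circles. The gene with the larger log2 fold change is on top in each pair, so the higher side was set by that choice. In all 4 pairs the 3 Aif1-/- libraries lie apart from the 3 WT libraries. The means are 7.65 against 3.68 for P2ry6 over P2ry2 and 1.32 against 0.887 for P2rx7 over P2rx4.

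The adenosine receptors were expressed at low levels. Adora2b (ENSMUSG00000018500, chr11:62248984-62266453, plus strand), the low-affinity Gs-coupled receptor, had 67, 61 and 36 counts in Aif1-/- BMMs, against 59, 55 and 65 in WT BMMs. The Aif1-/- libraries spread from 2.02 to 3.46 CPM and the WT libraries from 1.99 to 2.53 CPM, so the groups overlapped. A log2 fold change of 0.22 had an SE of 0.26 and a 95% interval of -0.35 to 0.80 (edgeR adjusted p = 0.646), so a difference of either sign remained within the error. Adora2a (ENSMUSG00000020178, chr10:75316877-75334784, plus strand), the high-affinity Gs-coupled receptor that rises in macrophages given endotoxin, had 2, 0 and 1 counts in Aif1-/- BMMs, against 1, 0 and 0 in WT BMMs. It did not pass the filter on low counts. Pooled over libraries this was 3 of 61978369 counts in Aif1-/- BMMs and 1 of 79211014 in WT BMMs, a ratio of 3.83 with a 95% counting interval of 0.308 to 201.3, which covers counting error only. A difference in Adora2a was not detectable at this depth.

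Entpd1 (ENSMUSG00000048120, chr19:40612366-40741602, plus strand), the enzyme that removes the ligands of the P2 receptors, was higher in Aif1-/- BMMs. It had 52.7, 52.6 and 49.5 CPM in Aif1-/- BMMs, against 41.0, 38.9 and 38.2 CPM in WT BMMs. The groups did not overlap, and both were tight. Entpd1 gave a log2 fold change of 0.39 (SE 0.07, 95% interval 0.23 to 0.55; edgeR adjusted p = 0.0035), or 1.31-fold. A processed pseudogene inside the gene, Gm8783, averaged 13.7 CPM in Aif1-/- BMMs and 12.2 CPM in WT BMMs (log2 fold change 0.17, edgeR adjusted p = 0.420).

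Per length of transcript, P2ry6 was the most abundant of the receptors in both genotypes. Levels here are in transcripts-per-million (TPM), computed from the counts and the summed exon length of each gene. P2ry6 averaged 94.6 ± 1.99 TPM in Aif1-/- BMMs and 75.7 ± 3.30 TPM in WT BMMs (SD, n = 3 each). P2rx7 followed with 63.6 ± 1.66 TPM in Aif1-/- BMMs and 57.6 ± 2.53 TPM in WT BMMs. These 2 receptors made up 33.8% and 22.7% of the summed receptor TPM in Aif1-/- BMMs, against 29.9% and 22.8% in WT BMMs.

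Below P2ry6 and P2rx7 the order depended on genotype. In Aif1-/- BMMs it ran P2ry12 (42.0 ± 1.59 TPM), P2rx4 (41.0 ± 1.5), P2ry13 (25.8 ± 3.30), Entpd1 (22.3 ± 0.724), P2ry2 (9.15 ± 0.743), Adora2b (3.48 ± 0.950), P2ry14 (0.622 ± 0.0237) and Adora2a (0.0344 ± 0.0307). The library ranges of P2ry12 and P2rx4 overlapped there, as did those of P2ry13 and Entpd1, and other neighbours in the order did not overlap. In WT BMMs it ran P2rx4 (55.3 ± 4.23 TPM), P2ry12 (35.7 ± 5.90), Entpd1 (17.2 ± 2.14), P2ry2 (15.1 ± 0.828), P2ry13 (9.34 ± 0.663), Adora2b (3.00 ± 0.361), P2ry14 (1.16 ± 0.568) and Adora2a (0.0116 ± 0.0201). Among WT libraries the ranges of P2rx7 and P2rx4 overlapped, as did those of Entpd1 and P2ry2, and other neighbours did not.

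P2ry13 changed place most. It was above P2ry2 in every Aif1-/- library and below it in every WT library, and its share of the summed receptor TPM was 9.20% in Aif1-/- BMMs and 3.69% in WT BMMs. P2rx4 held 14.6% of that sum in Aif1-/- BMMs and 21.9% in WT BMMs. P2ry2 held 3.26% in Aif1-/- BMMs and 5.98% in WT BMMs.

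**Figure D4:**
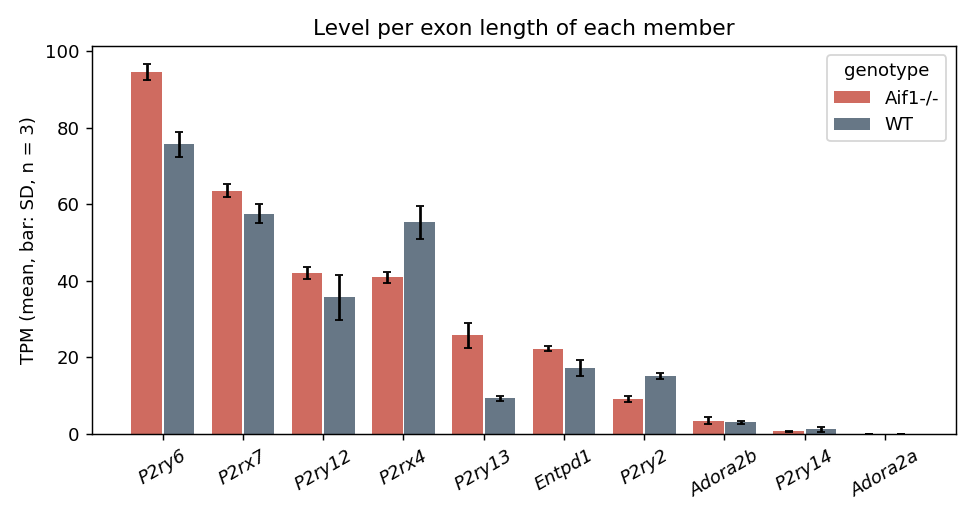
Mean TPM of each gene in Aif1-/- BMMs beside WT BMMs. P2ry6 and P2rx7 lead in both genotypes, P2ry13 stands at 25.8 TPM against 9.34 TPM, and Adora2a stays near 0 in both.

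Of 16 other genes tested within 50 kb of these receptors and Entpd1, 1 was higher, 5 were lower and 10 were not called (37.5% called, against 18.6% of all genes tested). Camkk2, a calmodulin-dependent kinase kinase gene that ends 1431 bases from P2rx4 on the opposite strand, was lower too (log2 fold change -0.54, edgeR adjusted p = 0.00092). Ift81, a ciliary transport gene on the far side of P2rx7, was also lower (-0.83, edgeR adjusted p = 0.00204), while P2rx7 between them was not called. Arhgef17, which codes for a guanine nucleotide exchange factor and lies 5522 bases from P2ry6, was lower, at 1.72 CPM in Aif1-/- BMMs and 8.85 CPM in WT BMMs (edgeR adjusted p = 1.08e-05). Tctn3, a ciliary transition zone gene whose start is 132 bases from that of Entpd1 on the opposite strand, fell to 20.6 CPM in Aif1-/- BMMs, against 31.4 CPM in WT BMMs (log2 fold change -0.60, edgeR adjusted p = 0.000766). The 2 genes that flank this short stretch thus differed in opposite directions. Near the adenosine receptors, Gucd1 was lower (-0.41, edgeR adjusted p = 0.0182) and Specc1 was higher (0.30, edgeR adjusted p = 0.0059), the Gucd1 call being lost without WT replicate 1 or any Aif1-/- replicate (adjusted p up to 0.110). Neighbours that were not called included Specc1l (-0.07, edgeR adjusted p = 0.519), Ncor1 (-0.04, 0.735), Ttc19 (0.17, 0.446) and Aldh18a1 (-0.15, 0.308).

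None of the 9 further P2X, P2Y and adenosine receptor genes was called. Only P2rx5 and P2rx2 passed the filter on low counts. P2rx5 had 49 counts over the Aif1-/- libraries and 121 over the WT libraries (log2 fold change -0.95, edgeR adjusted p = 0.0787), and P2rx2 gave -0.46 (edgeR adjusted p = 0.6). P2ry1, the other ADP receptor, had 25 counts in all in Aif1-/- BMMs and 22 in WT BMMs. The remaining 6 genes, P2rx1, P2rx3, P2rx6, P2ry4, Adora1 and Adora3, held at most 14 counts over the Aif1-/- libraries and 28 over the WT libraries.

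Among 16 ectonucleotidase genes, 8 passed the filter, of which 3 were higher and 1 was lower (50% called, against 18.6% of all genes tested). Enpp4, which encodes an ectoenzyme that hydrolyses diadenosine polyphosphates, averaged 33.6 ± 2.72 CPM in Aif1-/- BMMs and 18.5 ± 1.43 CPM in WT BMMs (SD, n = 3 each; edgeR adjusted p = 0.000164). Enpp1, which cleaves ATP to AMP and pyrophosphate, averaged 41.8 CPM in Aif1-/- BMMs and 30.4 CPM in WT BMMs (edgeR adjusted p = 0.00787). Entpd6, a mostly intracellular relative of CD39, averaged 10.2 CPM in Aif1-/- BMMs and 5.99 CPM in WT BMMs (edgeR adjusted p = 0.00961, and 0.0593 without Aif1-/- replicate 3). The gene that fell was Bst1, whose product makes and hydrolyses cyclic ADP-ribose, with 42 counts over the Aif1-/- libraries against 177 over the WT libraries (edgeR adjusted p = 0.00901). The median log2 fold change of the 8 genes was 0.33. Nt5e, which encodes CD73 and was looked at after its values were seen, gave 5.71 CPM in Aif1-/- BMMs and 3.17 CPM in WT BMMs. It was not called in the main test (log2 fold change 0.87, edgeR adjusted p = 0.0713). It was called in DESeq2 (adjusted p = 0.0311), with the replicate block (edgeR adjusted p = 0.0387) and without WT replicate 1 (edgeR adjusted p = 0.0125). Without WT replicate 3, and also without WT replicate 2, Entpd7 was called lower as well (edgeR adjusted p = 0.0402 and 0.0276).

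For the release of ATP, 9 of 16 genes of channels and carriers passed the filter, with 3 lower and 0 higher. The share called was 33.3%, against 18.6% of all genes tested (10.5% lower). The median log2 fold change was -0.37. Lrrc8c, a subunit of the volume-regulated anion channel, averaged 50.01 CPM in Aif1-/- BMMs and 98.2 CPM in WT BMMs (edgeR adjusted p = 5.68e-06). Lrrc8b, a further subunit, averaged 63.5 CPM in Aif1-/- BMMs and 96.8 CPM in WT BMMs (edgeR adjusted p = 9.16e-05). Lrrc8a, a subunit of the same channel looked at after its values were seen, was not called (log2 fold change 0.18, edgeR adjusted p = 0.359). Calhm2, a calcium homeostasis modulator gene, averaged 26.1 CPM in Aif1-/- BMMs and 39.0 CPM in WT BMMs (edgeR adjusted p = 0.0104, and 0.0600 without Aif1-/- replicate 3). Without WT replicate 3 the list had 1 higher call, the channel subunit gene Lrrc8d (0.19, edgeR adjusted p = 0.0223). Panx1, the pannexin channel opened by caspase cleavage in dying cells, was not called (5.27 CPM in Aif1-/- BMMs, 6.82 CPM in WT BMMs, edgeR adjusted p = 0.149).

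Of 16 genes of adenosine uptake and turnover, 15 could be matched, 11 passed the filter, 1 was higher and 2 were lower (median -0.05). The share called was 27.3%, against 18.6% of all genes tested. Slc28a2, a concentrative nucleoside transporter, averaged 28.0 CPM in Aif1-/- BMMs and 51.7 CPM in WT BMMs (edgeR adjusted p = 0.000644). Nt5c2, a cytosolic nucleotidase, averaged 54.8 CPM in Aif1-/- BMMs and 40.0 CPM in WT BMMs (edgeR adjusted p = 0.0015). The AMP deaminase gene Ampd3 was lower by a small amount, at 138 CPM in Aif1-/- BMMs and 160 CPM in WT BMMs (edgeR adjusted p = 0.0356), a call lost without WT replicate 1 or any Aif1-/- replicate (adjusted p up to 0.226). Slc29a1, the equilibrative nucleoside transporter ENT1, was not called (32.2 CPM in Aif1-/- BMMs, 36.9 CPM in WT BMMs, edgeR adjusted p = 0.207).

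Downstream of P2X7, 9 of 10 inflammasome and IL-1 genes passed the filter, with 2 higher, 3 lower and a median log2 fold change of -0.08. The share called was 55.6%, against 18.6% of all genes tested. Nlrp3, the sensor, averaged 65.6 CPM in Aif1-/- BMMs and 32.8 CPM in WT BMMs (log2 fold change 1.00, edgeR adjusted p = 1.11e-05). Casp1 and Casp4, the caspases that cleave IL-1 family cytokines and gasdermin D, fell by 0.47 and 1.00 on the log2 scale (edgeR adjusted p = 0.00271 and 0.00148), and Gsdmd itself fell by 0.25 (edgeR adjusted p = 0.0402). The second gene that rose was Il1b, with 55 counts over the Aif1-/- libraries and 23 over the WT libraries (edgeR adjusted p = 0.0454), which is named because it completes the count. Nlrp3 and the caspases thus differed in opposite directions, and the count of 5 changed with the tool (3 in DESeq2). Il1b lost its call without any 1 library other than WT replicate 1 (adjusted p = 0.0543 without WT replicate 3), and Gsdmd without any Aif1-/- replicate (adjusted p up to 0.209).

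Of 16 G protein and effector genes of these receptors, 15 passed the filter. The share called was 33.3%, against 18.6% of all genes tested. In this list 4 genes were higher and 1 was lower (median 0.09). Those named by the smallest adjusted p were Pik3cg, the Gβγ-responsive kinase of Gi signalling (0.38, edgeR adjusted p = 0.00329), Rgs1, which shortens Gi and Gq signals (0.65, edgeR adjusted p = 0.0096), and Creb1 (0.29, edgeR adjusted p = 0.04) on the higher side, and Gnas, the Gs α-subunit, on the lower side (-0.73, edgeR adjusted p = 0.0135). Few reads were counted for Gnas, at 6.51 CPM in Aif1-/- BMMs and 10.8 CPM in WT BMMs. Gnai2 had 880 and 767 CPM. Whether Gnas lost reads to overlapping exons was not tested. The Gnas call was lost without any Aif1-/- replicate (adjusted p up to 0.0715), Creb1 without Aif1-/- replicate 1 or 2 or WT replicate 1 (up to 0.169), and Rgs1 without WT replicate 1 (0.0622). Without WT replicate 3, Gnai2 and Gna13 were called higher and Plcb2 lower (edgeR adjusted p = 0.00069, 0.00828 and 0.0460).

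**Figure D5:**
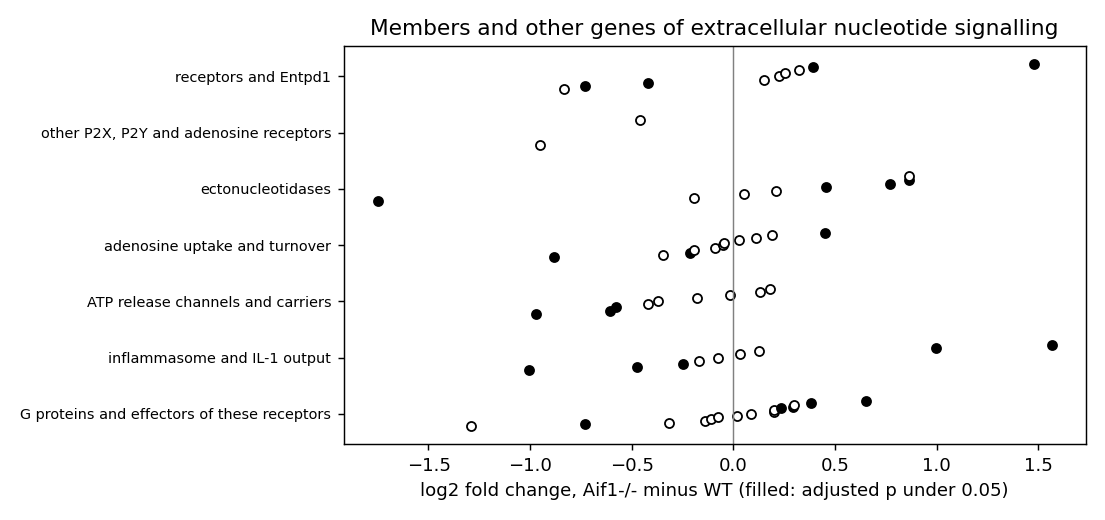
Log2 fold change (Aif1-/- over WT) of every tested gene of the 10 described (top) and of each related list, filled where the adjusted p was below 0.05. ATP release genes lie mostly left of 0 with a median of -0.37, and the ectonucleotidases lie mostly right of it with a median of 0.33.

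P2ry12 and P2ry13 are also known from microglia and platelets, so markers of both were measured beside them. Of 7 microglia markers, 5 passed the filter and 2 were higher: Cx3cr1, the fractalkine receptor, with 4250, 2516 and 2739 counts in Aif1-/- BMMs, against 107, 138 and 149 in WT BMMs, and Gpr34, with a log2 fold change of 2.49. The summed marker level was 433 to 457 CPM in Aif1-/- BMMs and 262 to 325 CPM in WT BMMs. Sall1, which defines microglia, was at 0 in every library, and Tmem119 and Olfml3 had log2 fold changes of 0.21 and 0.00. Of 7 megakaryocyte and platelet markers, 4 passed and 3 were higher (Pf4, Ppbp and Treml1). The summed level was 85.2 to 89.1 CPM in Aif1-/- BMMs and 39.7 to 44.6 CPM in WT BMMs. Itga2b, which also passed, pointed the other way and was not called (log2 fold change -0.49, edgeR adjusted p = 0.606). Gp1bb was at 0, and Gp9 and Gp6 had at most 2 counts in any library. The part of the microglia and platelet markers in the P2ry13 result was not tested.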

How the data were processed

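Single-end libraries were made by the authors from total RNA with rRNA depletion and a stranded kit. Reads were trimmed with Trim Galore 0.5 and aligned to GRCm38 with TopHat2 2.0.13, keeping reads with 1 location, and HTSeq 0.6.1p1 gave the deposited raw counts per Ensembl gene. Reads shared by near-identical genes are thereby lost, and reads in exons of overlapping genes count for neither. Gene symbols came from GENCODE M21 on GRCm38, which held 47224 of the 47729 IDs. The 505 others carried 0.160% of counts. Reads outside genes (25.5% to 40.4% of those counted) and ambiguous reads (4.55% to 7.15%) were left out of library sizes.

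Counts were tested in R 4.3.3 with edgeR 4.0.16 (filterByExpr, TMM, quasi-likelihood F test of Aif1-/- against WT on all 6 libraries, Benjamini-Hochberg over 17406 genes, threshold 0.05). The SE is the log2 fold change divided by the root of F. DESeq2 1.42.0 served as an alternative, beside other size factors, filters of none or at least 50 counts in 3 libraries, thinning to the smallest library, a replicate block, glmTreat with a log2 threshold of 1, and leaving out each library. A covariate for the percentage of reads that hit no gene, and the alternatives for neighbours, markers and G protein genes, were chosen after the data were seen. The steps were tested on simulated data. Motifs were searched in the RefSeq promoters.

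The members and the gene lists were chosen with earlier results of these data known. Outside the 10 members, the genes named were the 4 of each list with the smallest adjusted p, the members' neighbours within 50 kb, and the genes most like the member with the smallest adjusted p. Exceptions are named in the text. Values of some neighbouring and marker genes are not reported here.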

Additional observations from a re-analysis of the deposited data

How the results depend on the processing

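The 4 calls (P2ry13, Entpd1, P2ry2 and P2rx4) were kept under DESeq2, other size factors, both filters, thinning and each left-out library. No member reversed in any alternative. Against a log2 fold change of 1, 1 member (P2ry13) and 599 genes were called, against 4 and 3231. With a covariate for reads that hit no gene, added after the data were seen, 8 members and 5517 genes (31.7%) were called. Leaving out 1 library gave 4 to 7 members and 2040 to 4889 genes. The highest values came without WT replicate 3, when P2rx7, P2ry6 and P2ry14 were added and 27.6% of genes were called. Without WT replicate 2, the same 4 members and 22.5% of genes were called. Members called numbered 5 in DESeq2, which added P2ry6, 6 with no filter on low counts (13.1% of genes called) and 6 with the stricter filter (22.8%). The inflammasome list had 5 calls, 3 in DESeq2, 3 with the replicate block and 3 to 5 with 1 library left out. With the replicate block, Ampd3, Gsdmd, Il1b, Rgs2, Cd14 and Itgax lost their calls and Nt5e and Spi1 were called.

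With the replicate block, 2872 genes and the same 4 members were called. The labels share replicate numbers between genotypes, but same-numbered libraries did not deviate together (correlations of 0.06, -0.08 and -0.09 over genes). No shared effect of the number was thus seen. The labels do not say whether such libraries were prepared together, and these correlations cannot decide it. Low counts limit P2ry14, Adora2b and Adora2a most.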

Other observations

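Over the 6 libraries, the genes whose log2 CPM followed P2ry13 most closely among 12129 expressed genes were Cog5 (r = 0.998), a subunit of the Golgi COG complex, Cd83 (r = 0.997), a surface protein of activated antigen-presenting cells, and Ak1 (r = 0.997), a cytosolic adenylate kinase. All 6 points share the split by genotype, so these values only describe likeness. Cd83 averaged 59.2 CPM in Aif1-/- BMMs and 24.6 CPM in WT BMMs, Ak1 8.49 CPM in Aif1-/- BMMs and 5.62 CPM in WT BMMs, and Cog5 37.4 CPM in Aif1-/- BMMs and 28.6 CPM in WT BMMs.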
